A study of Rattus norvegicus with 7 samples.

Results

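Osteopontin, CD44 and intercellular adhesion molecule-1 (ICAM-1) were followed as an adhesion ligand, its surface receptor and a second adhesion receptor in rat cortex after a cerebral cortical contusion. The members were 3 clones of the array, taken by their clone identity as osteopontin (RNABT23), CD44 (RNABK17) and ICAM-1 (RNACA35), out of 6240 features. No value of these arrays entered the rule itself, but all 3 clones stand in the lists of regulated clones that the study drew from the same arrays, so their upregulation is not independent evidence.

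Male Sprague Dawley rats received a craniotomy and a contusion from a dropped weight on the cortex of 1 hemisphere. The cortex was taken on both sides 1 day post injury (1 dpi, 3 animals) or 4 days post injury (4 dpi, 4 animals). Each array carried total RNA from the ipsilateral cortex, with the injury site and the tissue around it, against RNA from that animal's contralateral cortex, which had no treatment of its own. Every value is therefore a log2 ratio of ipsilateral over contralateral cortex, where 1 is a doubling and 0 is no difference between the sides. Ipsilateral RNA was labelled with Cy5 on replicates 1 and 2 of 1 dpi and replicates 2 and 3 of 4 dpi, and with Cy3 on replicate 3 of 1 dpi and replicates 1 and 4 of 4 dpi. Animals of 1 dpi and 4 dpi were different animals, and arrays of animals without a contusion were not analysed here. Contusion and craniotomy therefore cannot be told apart in these ratios. The ratio is one of whole tissue, so more RNA per cell and more cells that carry the RNA cannot be told apart.

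Osteopontin, the product of Spp1, is a secreted phosphoprotein that binds integrins through an RGD motif and can bind CD44. CD44 is a transmembrane glycoprotein best known as the receptor for hyaluronan, and its cytoplasmic tail is tied to actin by ezrin, radixin and moesin. ICAM-1 is an immunoglobulin-type protein of endothelial and activated glial cells that binds the leukocyte beta-2 integrins, and its tail is tied to actin by the same linkers. In injured brain, osteopontin is known from macrophages and activated microglia, CD44 from reactive glia and infiltrating leukocytes, and ICAM-1 from activated endothelium.

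The stretches before the transcription start of the 3 genes are shown because the 3 clones were called upregulated together at 1 dpi and several transcription factors on the array were called with them. They were taken from RefSeq on build GRCr8 as the 250 bases before each annotated start, read 5′ to 3′ on the strand of the gene, and matched by symbol for 3 of 3 genes, with capitals for the motifs found.

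Spp1 (chr14:5619805-5620054, minus strand): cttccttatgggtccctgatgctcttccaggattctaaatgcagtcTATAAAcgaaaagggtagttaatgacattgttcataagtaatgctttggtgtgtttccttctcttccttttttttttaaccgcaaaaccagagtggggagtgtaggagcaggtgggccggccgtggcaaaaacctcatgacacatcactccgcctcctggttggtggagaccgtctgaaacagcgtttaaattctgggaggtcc

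Cd44 (chr3:109699425-109699674, minus strand): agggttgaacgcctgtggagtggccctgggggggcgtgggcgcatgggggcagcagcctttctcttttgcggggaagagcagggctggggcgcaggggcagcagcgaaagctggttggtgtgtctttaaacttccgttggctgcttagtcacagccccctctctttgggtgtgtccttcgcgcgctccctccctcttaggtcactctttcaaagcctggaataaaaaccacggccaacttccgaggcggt

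Icam1 (chr8:27829595-27829844, plus strand): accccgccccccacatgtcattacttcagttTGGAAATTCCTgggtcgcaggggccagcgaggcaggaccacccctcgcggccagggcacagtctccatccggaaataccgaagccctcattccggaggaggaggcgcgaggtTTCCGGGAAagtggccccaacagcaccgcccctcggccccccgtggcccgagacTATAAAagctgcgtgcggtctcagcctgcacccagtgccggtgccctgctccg

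GC content was 46.8% in the Spp1 stretch, 60.8% in Cd44 and 66% in Icam1. Motifs were searched as exact letters on both strands. They were the 10-base NF-kappaB consensus, TTCNNNGAA for STAT factors, TGANTCA for AP-1, TTGCNNAA for C/EBP factors and TATAAA for the TATA box. Icam1 held NF-kappaB matches at -219 to -210 on its own strand and at -218 to -209 on the other strand, which overlap, so the capitals there run over both. It also held TTCCGGGAA at -107 to -99 and TATAAA at -53 to -48, counted from the start site. Spp1 held TATAAA at -204 to -199, and no searched motif was found in the Cd44 stretch. Among 33469 RefSeq promoter stretches of the same length, 6.33% held the NF-kappaB consensus, 7.67% the STAT letters, 6.34% the AP-1 letters, 9.22% the C/EBP letters and 12.9% TATAAA. These matches describe the letters alone, since binding was not measured here.

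Osteopontin was upregulated on every array and more at 4 dpi than at 1 dpi. Its log2 ratios at 1 dpi were 2.64, 3.32 and 4.44 in replicates 1 to 3, or 6.22-fold, 9.97-fold and 21.8-fold. At 4 dpi they were 5.60, 5.26, 6.79 and 5.59 in replicates 1 to 4, or 48.7-fold, 38.3-fold, 110.5-fold and 48.1-fold. The time points did not overlap, with the lowest array of 4 dpi at 5.26 and the highest array of 1 dpi at 4.44. Replicate 3 of 1 dpi, with Cy3 on the ipsilateral side, was the highest of its time point, while replicate 3 of 4 dpi, with Cy5 there, was the highest of the other.

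The mean log2 ratio of osteopontin was 3.47 ± 0.91 (SD, n = 3) at 1 dpi, with a limma adjusted p of 2.4e-05, and 5.81 ± 0.67 (SD, n = 4) at 4 dpi, with a limma adjusted p of 5.12e-07. The 4 dpi mean corresponds to a 56.1-fold difference between the sides. By these means osteopontin ranked 3 of 4952 tested features at 1 dpi and 2 of 3191 at 4 dpi. On single arrays it was between the highest and the 11th highest of all features with a value, that last place being on replicate 1 of 1 dpi. The study saw no contralateral osteopontin by in situ hybridisation or immunohistochemistry. How near background its contralateral spots lay is not known here, which limits what the size of its folds can mean.

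**Figure D1:**
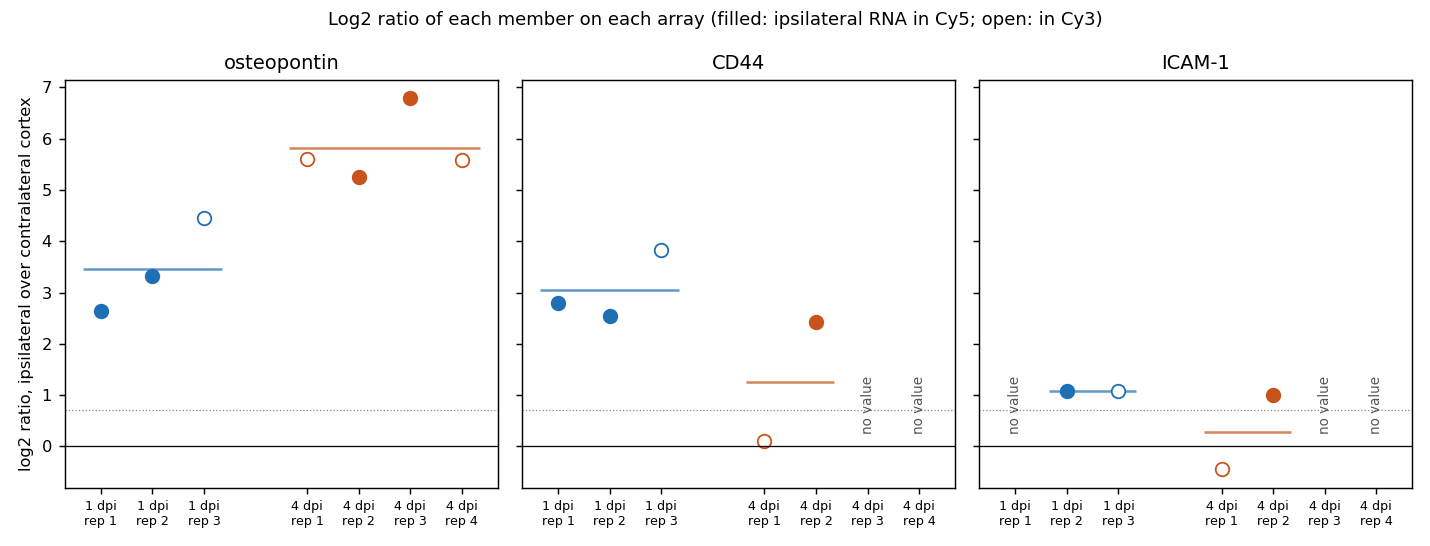
The log2 ratio of ipsilateral over contralateral cortex (y axis) of osteopontin, CD44 and ICAM-1 on each array (x axis), with horizontal lines at the mean of each time point, a dotted line at 0.7, and filled points for ipsilateral RNA in Cy5 and open points for Cy3. All osteopontin points of 4 dpi lie above those of 1 dpi, while CD44 and ICAM-1 have 2 values each at 4 dpi, a high one on replicate 2 and one near or below 0 on replicate 1.

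CD44 was upregulated at 1 dpi almost as strongly as osteopontin. Its log2 ratios at 1 dpi were 2.80, 2.54 and 3.82 in replicates 1 to 3. At 4 dpi it was 0.10 in replicate 1 and 2.42 in replicate 2, and replicates 3 and 4 had no value. Both values of 4 dpi lay below all values of 1 dpi, that of replicate 2 just below the lowest of them. The same order on these 5 arrays was found for 14.2% of the 3524 features with a value on all of them. The 1 dpi mean was 3.05 ± 0.68 (SD, n = 3), or 8.30-fold, with a limma adjusted p of 1.31e-05 and rank 5 of 4952 features. At 4 dpi the mean of 1.26 ± 1.64 (SD, n = 2) came from fewer arrays than the 3 required for a test. With 2 arrays allowed, the limma adjusted p was 0.134.

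The arrays of 4 dpi that had a value placed CD44 far apart. It ranked 1420 of 4133 features on replicate 1 and 10 of 5082 on replicate 2, against ranks of 2 to 11 on the arrays of 1 dpi.

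ICAM-1 had the lowest ratios of the members at 1 dpi. It had no value on replicate 1 of 1 dpi, and its log2 ratios were 1.08 on both replicate 2 and replicate 3, or 2.11-fold and 2.12-fold. At 4 dpi it was -0.45 in replicate 1 and 1.01 in replicate 2, with no value on replicates 3 and 4. Its values of 1 dpi differed by far less than those of 4 dpi, and replicate 2 of 4 dpi lay close to them. The 1 dpi mean of 1.08 ± 0.0033 (SD, n = 2) had a limma adjusted p of 0.0016, and rank 78 of 4952 features. With both time points in 1 fit the same mean had a limma adjusted p of 0.0433, above the threshold of 0.02, and with 1 array left out no test was possible, so the call at 1 dpi rests on the fit. At 4 dpi the mean was 0.28 ± 1.03 (SD, n = 2), with a limma adjusted p of 0.626 where 2 arrays were allowed.

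All 3 members were called upregulated at 1 dpi, where 3.90% of 4952 tested features passed both limits upwards, an adjusted p of at most 0.02 and a mean above 0.7 on the log2 scale. At 4 dpi 1 of 3 was tested and called, osteopontin, where 2.63% of 3191 tested features were called upregulated. With the limit of 0.7 passed on every array with a value, in place of the mean, these 3 calls of 1 dpi and that of osteopontin at 4 dpi stood. The listed clones that lost a call under that rule were C1q beta, C1q C, GABA-A receptor delta and cpg2 at 1 dpi, and moesin, osteonectin, macrophage expressed gene 1, the class III Fc gamma receptor, brain-enriched guanylate kinase-associated protein 1 and cpg2 at 4 dpi.

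**Figure D2:**
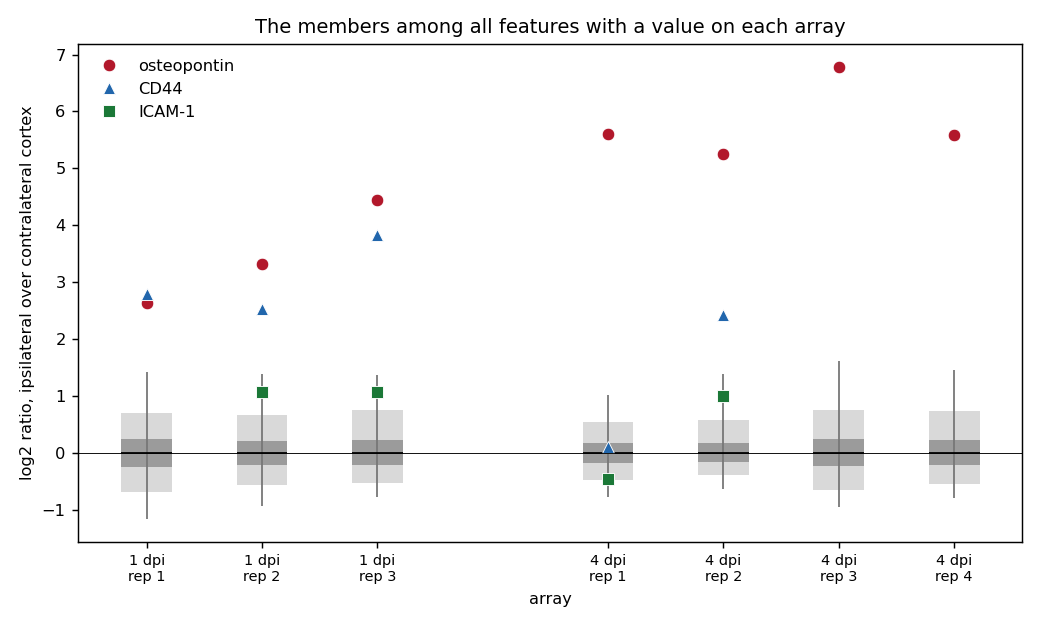
The members on each array (x axis) against all features with a value there, as log2 ratio of ipsilateral over contralateral cortex (y axis), with dark boxes from the 25th to the 75th percentile, light boxes from the 5th to the 95th, vertical lines from the 1st to the 99th and a black line at the median. Osteopontin stands above the 99th percentile of all 7 arrays, and CD44 does so on 4 of its 5 arrays but lies near the median on replicate 1 of 4 dpi.

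The values of CD44 and ICAM-1 on replicates 3 and 4 of 4 dpi are missing, not 0. The methods left out spots that were absent or under 2 times the background. Values were left for 3993 to 5208 features per array at 1 dpi, and for 4133, 5082, 2332 and 3270 in replicates 1 to 4 of 4 dpi. Over all features, 851 had a value on replicates 1 and 2 of 4 dpi and on neither of the other arrays of that time point. The exact pattern of CD44 was shared by 560 features including itself, and that of ICAM-1 by 209. Of the 193 features called upregulated at 1 dpi, 62 had a value on all 4 arrays of 4 dpi, 51 on 2 of them, as did CD44 and ICAM-1, and 15 on none.

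Osteopontin rose from 1 dpi to 4 dpi. The difference of the mean log2 ratios, 4 dpi minus 1 dpi, was 2.34 (SE 0.40, 95% interval 1.49 to 3.20) with a limma adjusted p of 0.00775, and ranked 2 of the 3188 features tested at both time points. Of these, 3.48% were called higher at 4 dpi, with an adjusted p not above 0.05. Every array of 4 dpi was above every array of 1 dpi for 10.9% of the features, osteopontin among them. An exact permutation test over the 35 splits of the 7 arrays gave a two-sided p of 0.0286, the smallest the design allows. With each array left out in turn the difference stayed between 1.93 and 2.83 and the limma adjusted p between 0.00216 and 0.0449, the least separated case being without replicate 1 of 1 dpi.

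Neither receptor clone could be tested for a difference between the time points under the same requirement. The means of CD44 differed by -1.79 and those of ICAM-1 by -0.80, 4 dpi minus 1 dpi. Where 2 arrays per time point were allowed, the limma adjusted p was 0.149 for CD44 and 0.352 for ICAM-1, so a change of either was not detectable with these arrays.

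The ligand was set against its receptor on the same array, where both log2 ratios come from 1 animal. Such a gap compares 2 changes between the sides and not 2 RNA levels. Osteopontin minus CD44 was -0.16, 0.78 and 0.62 on replicates 1 to 3 of 1 dpi, and 5.50 and 2.84 on replicates 1 and 2 of 4 dpi. The ratio of the ligand was thus close to that of the receptor on all arrays of 1 dpi and above it on both arrays of 4 dpi that have a value. The gap was 0.41 ± 0.50 (SD, n = 3) at 1 dpi and 4.17 ± 1.89 (SD, n = 2) at 4 dpi. The change of 3.76 had an exact permutation p of 0.1, the smallest that 10 splits allow (adjusted p = 0.3 over the 3 pairs). Without replicate 1 of 4 dpi the change was 2.42, and without replicate 2 it was 5.09.

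Osteopontin minus ICAM-1 was 2.24 and 3.36 on replicates 2 and 3 of 1 dpi, and 6.05 and 4.25 on replicates 1 and 2 of 4 dpi. Osteopontin had the higher log2 ratio on 4 of 4 arrays, by 3.98 ± 1.61 (SD, n = 4), with an exact sign permutation p of 0.125, the smallest that 4 arrays allow. The change of 2.35 between the time points had an exact permutation p of 0.333 (adjusted p = 0.333), the smallest that 2 arrays against 2 allow, and the gaps of the time points did not overlap. The change was 1.45 to 3.25 with single arrays left out, lowest without replicate 1 and highest without replicate 2 of 4 dpi, and 3.64 with the arrays scaled to 1 spread.

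CD44 minus ICAM-1 was 1.46 and 2.74 on replicates 2 and 3 of 1 dpi, and 0.55 and 1.41 on replicates 1 and 2 of 4 dpi. CD44 had the higher ratio on 4 of 4 arrays, by 1.54 ± 0.90 (SD, n = 4), again with an exact permutation p of 0.125. Its change of -1.12 had an exact permutation p of 0.333 (adjusted p = 0.333), again the smallest possible, and the gaps did not overlap. The change was -1.76 without replicate 2 and -0.48 without replicate 3 of 1 dpi, and became -0.69 when replicate 1 of 4 dpi was left out.

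**Figure D3:**
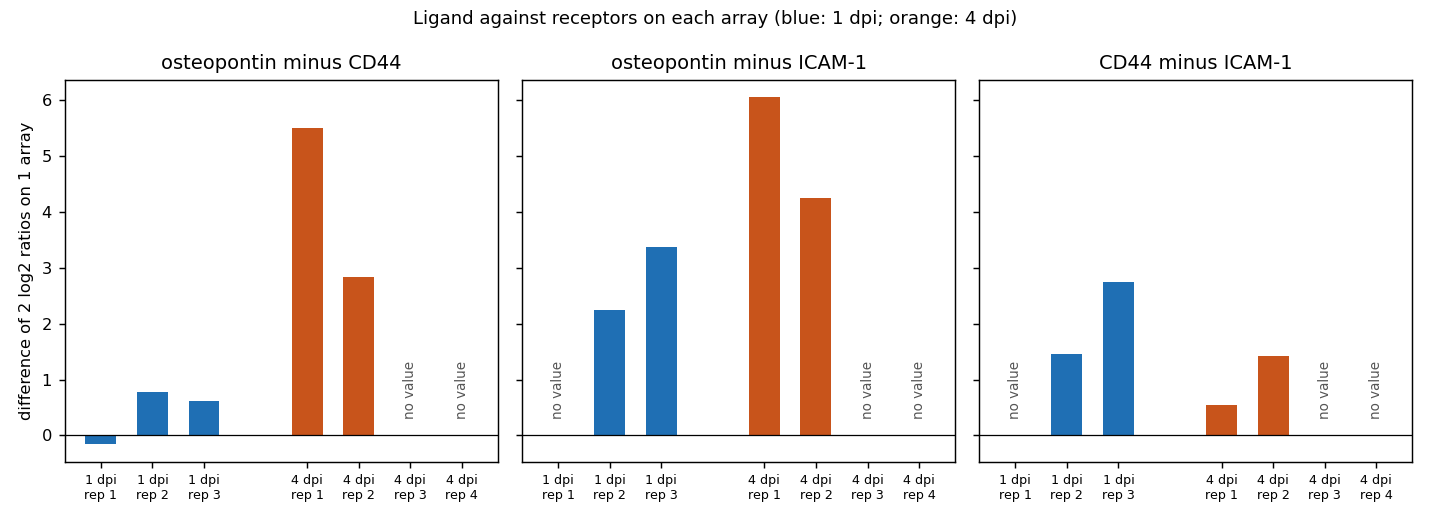
The difference of 2 log2 ratios on the same array (y axis) for osteopontin minus CD44, osteopontin minus ICAM-1 and CD44 minus ICAM-1 on each array (x axis), blue for 1 dpi and orange for 4 dpi. Osteopontin minus CD44 is between -0.16 and 0.78 at 1 dpi and 2.84 or more at 4 dpi, where replicates 3 and 4 give no value.

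The receptor clones and the ligand behaved differently on the first pair of arrays of 4 dpi. Replicate 2 minus replicate 1 was 2.32 for CD44, 1.45 for ICAM-1 and -0.35 for osteopontin. Over the 4013 features with a value on both arrays, this difference had a median of -0.0068, with 1st and 99th percentiles of -0.72 and 1.15. CD44 ranked 7 and ICAM-1 ranked 22 from the top, and osteopontin 3589. Of the actin linkers, 1 of 2 was higher on replicate 2 by more than 1, moesin (1.22), while ezrin was at -0.0078. Of the transcription factors 3 of 5 were, c-fos (2.95), C/EBP delta (2.02) and Stat3 (1.66), while c-jun (0.66) and NF-kappaB (0.21) were not. Of the macrophage and microglia clones 1 of 5 was, the class III Fc gamma receptor (1.46), with osteoactivin at 0.71, C1q C at 0.48, C1q beta at 0.48 and macrophage expressed gene 1 at -0.40. None of the 6 extracellular matrix clones was, collagen I alpha 1 being at 0.09 and collagen III alpha 1 at -0.01. Over all features, 56 were higher on replicate 2 by more than 1 and 6 were lower by more than 1. Replicate 1 carried ipsilateral RNA in Cy3 and replicate 2 in Cy5, so animal and dye cannot be told apart between these arrays. On replicate 4, also with ipsilateral RNA in Cy3, moesin was at 2.42 against 0.53 on replicate 1 and the class III Fc gamma receptor at 1.58 against 0.05, while CD44, ICAM-1, c-fos, C/EBP delta and Stat3 had no value there. On the Cy3 array of 1 dpi, replicate 3, c-fos (0.70), Stat3 (1.16) and c-jun (0.71) were at their lowest of that time point, and CD44 (3.82) and C/EBP delta (2.01) at their highest. The lowest c-fos value of 4 dpi, -0.95, was also on a Cy3 array, replicate 1, against 2.00 and 0.82 on the Cy5 arrays. Across features, replicate 1 correlated with the arrays of 1 dpi at Pearson r of 0.16, 0.01 and 0.42, replicate 2 at 0.64, 0.55 and 0.63, replicate 3 at 0.43, 0.56 and 0.46 and replicate 4 at 0.35, 0.26 and 0.53. Within 4 dpi, replicate 1 correlated with replicates 2, 3 and 4 at 0.49, 0.52 and 0.74, and those among themselves at 0.57 to 0.73. These values describe the arrays, since features are not independent.

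**Figure D4:**
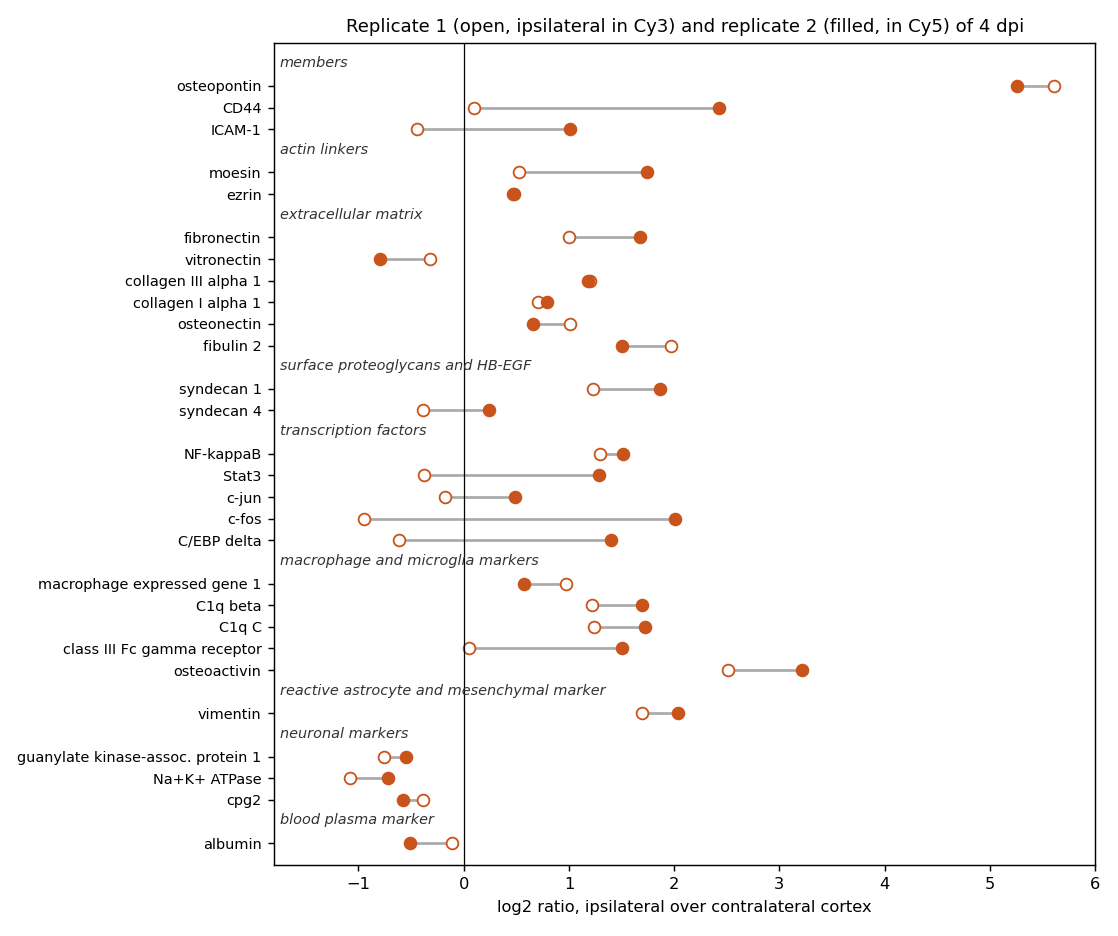
The log2 ratio of ipsilateral over contralateral cortex (x axis) on replicate 1 (open points, ipsilateral RNA in Cy3) and replicate 2 (filled points, in Cy5) of 4 dpi for each listed clone with a value on both arrays (y axis), grouped by list. CD44, ICAM-1, moesin, c-fos, C/EBP delta, Stat3 and the class III Fc gamma receptor are more than 1 higher on replicate 2, while osteopontin is 0.35 lower.

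The lists of clones beside the members were chosen with earlier results of these data known, mostly from the study's regulated clones. Their calls are therefore not independent evidence. Moesin and ezrin, the linkers of CD44 and ICAM-1 to actin, were both called upregulated at 1 dpi, where 3.90% of tested features were. Their mean log2 ratios were 1.72 ± 0.53 and 1.00 ± 0.17 (SD, n = 3). Moesin was called at 4 dpi too, at 1.43 ± 0.83 (SD, n = 4) with a limma adjusted p of 0.0078. That call was lost without replicate 2 (1.32, limma adjusted p of 0.0575) or without replicate 3 (1.56, limma adjusted p of 0.0222). Ezrin, at 0.55 ± 0.14 (SD, n = 4), had a limma adjusted p of 0.00607 but stayed under the limit of 0.7. Neither linker was called different between the time points.

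The extracellular matrix list held 6 clones, all tested at both time points. At 1 dpi 1 was called upregulated, fibulin 2, and 1 downregulated, vitronectin (-1.21 ± 0.32, SD, n = 2), where 1.51% of features were called downregulated. Vitronectin could not be tested with an array left out. At 4 dpi 5 were called upregulated, where 2.63% of tested features were. Of the 5, fibulin 2 had 3 values and so no test with an array left out. Vitronectin was at -0.42 ± 0.34 (SD, n = 3). The median of the list was -0.17 at 1 dpi and 1.00 at 4 dpi, beside 0.0087 and -0.0097 over all features tested. Collagen I alpha 1, the main fibrillar collagen, went from -0.41 to 0.78 and osteonectin, a collagen-binding glycoprotein, from -0.30 to 0.91, with limma adjusted p of 0.00258 and 0.00204 for the difference between the time points. Fibronectin, a ligand of integrins like osteopontin, went from 0.45 to 1.76 with a limma adjusted p of 0.0111, which was 0.053 without replicate 2 of 1 dpi. Collagen III alpha 1 was higher at 4 dpi by 1.12 (limma adjusted p of 0.0355), a call lost without replicate 1 (0.99) or 2 (0.82) of 1 dpi, or without replicate 2 (1.09) or 4 (1.12) of 4 dpi. Every array of 4 dpi lay above every array of 1 dpi for 5 of the 6 clones, vitronectin included and fibulin 2 not, beside 10.9% of all features tested at both time points.

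The surface proteoglycans syndecan 1 and syndecan 4, which hold growth factors at the cell surface, and the growth factor HB-EGF were called upregulated at 1 dpi. These were 3 of 3 clones of a list chosen with earlier results known, beside 3.90% of all tested features. Syndecan 1 was at 2.99 ± 0.44 (SD, n = 3), close to CD44, and had 2 values at 4 dpi, 1.23 and 1.86. HB-EGF was at 2.72 and 2.82 on replicates 1 and 2 of 1 dpi and had no value on the other arrays, so its call could not be tested with an array left out. Syndecan 4 went from 0.99 to 0.08, a difference of -0.90 (limma adjusted p of 0.0342) that was no longer called without replicate 1 (-0.97) or 2 (-0.72) of 1 dpi, or without replicate 1 (-0.75) or 4 (-0.85) of 4 dpi. Here 1.51% of 3188 features were called lower at 4 dpi.

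All 5 transcription factor clones were called upregulated at 1 dpi, from 1.14 for c-jun to 1.72 for C/EBP delta. Over all tested features 3.90% were called so. This list was chosen with earlier results of these data known, so the count is not independent evidence. The call of c-fos, at 1.66 ± 0.91 (SD, n = 3), was lost without replicate 2 of 1 dpi (1.61, limma adjusted p of 0.0201) and with both time points in 1 fit (limma adjusted p of 0.0388). At 4 dpi 3 of 5 were tested and NF-kappaB, a regulator of inflammatory genes, was called, at 1.77 ± 0.44 (SD, n = 4), on all 4 arrays between 1.30 and 2.25. Stat3 and C/EBP delta had 2 values each at 4 dpi, below 0 on replicate 1 and above 1 on replicate 2, as had ICAM-1. The signal-dependent factor c-jun fell from 1 dpi to 4 dpi by 0.94 on the log2 scale (limma adjusted p of 0.0364), which was lost without replicate 1 (-0.76) or replicate 2 (-0.90) of 1 dpi, and with the arrays scaled to 1 spread (-0.83, limma adjusted p of 0.0658).

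Markers of other cells moved beside the members. Among the 5 macrophage and microglia clones, 1 dpi had 4 upward calls and 4 dpi had 5, with list medians of 0.74 and 1.69. At 1 dpi C1q beta fell under the limit without replicate 2 (0.67) and C1q C without replicate 3 (0.64), with the arrays centred on their medians (0.699) or scaled to 1 spread (0.655). With both time points in 1 fit, C1q beta (limma adjusted p of 0.0225) and the class III Fc gamma receptor (limma adjusted p of 0.0502) were not called at 1 dpi. At 4 dpi the class III Fc gamma receptor was lost without replicate 2 (1.12, limma adjusted p of 0.075) or replicate 3 (1.05, limma adjusted p of 0.0485), while C1q beta had 3 values there and so no test with an array left out. Osteoactivin, a transmembrane glycoprotein of macrophages, went from 1.36 ± 0.55 (SD, n = 3) to 3.34 ± 0.63 (SD, n = 4), a difference of 1.97 (limma adjusted p of 0.00583). C1q C was higher at 4 dpi by 0.99 (limma adjusted p of 0.00923, or 0.0533 without replicate 1 of 1 dpi). C1q beta was higher by 1.00 (limma adjusted p of 0.0372), a call lost without replicate 1 (0.91), 2 (1.08) or 3 (1.02) of 1 dpi, and with a dye term (0.98, limma adjusted p of 0.0628). Vimentin, an intermediate filament of reactive astrocytes and mesenchymal cells, was at 1.37 ± 0.49 (SD, n = 3) and 2.31 ± 0.52 (SD, n = 4). The difference between the time points was not called for vimentin (0.94, limma adjusted p of 0.0742), macrophage expressed gene 1 (0.44, limma adjusted p of 0.204) or the class III Fc gamma receptor (0.38, limma adjusted p of 0.572).

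Of 4 clones listed as neuronal, 2 were called downregulated at 1 dpi, where 1.51% of tested features were. At 4 dpi 3 of 3 tested were called downregulated, where 0.376% of features were. The means of the listed clones lay between -1.11 and -0.24 at 1 dpi and, for those tested, between -0.95 and -0.76 at 4 dpi. The call of cpg2 was lost without replicate 2 of 1 dpi (-0.71, limma adjusted p of 0.021), and at 4 dpi without replicate 2 (-0.83, limma adjusted p of 0.0356) or replicate 3 (-0.60). That of brain-enriched guanylate kinase-associated protein 1 was lost without replicate 3 of 4 dpi (-0.69). Na+K+ ATPase, the sodium pump, is listed by the study without its subunit, so it is not taken as a marker of neurons alone. It was lower at 4 dpi than at 1 dpi by a difference of -0.71 (limma adjusted p of 0.0214), which was -0.58 without replicate 1 of 1 dpi (limma adjusted p of 0.126). The plasma protein albumin was at -1.23 ± 0.36 (SD, n = 3) at 1 dpi and had 2 values at 4 dpi, -0.11 and -0.51, both above all arrays of 1 dpi and too few for the test. The part of any of these marker lists in the ratios of osteopontin, CD44 and ICAM-1 was not tested.

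**Figure D5:**
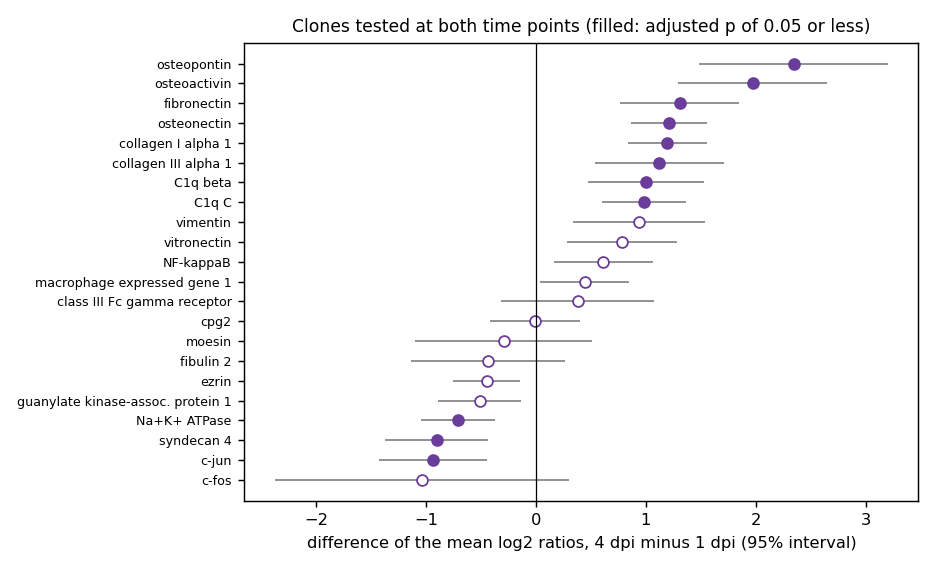
The difference of the mean log2 ratios, 4 dpi minus 1 dpi (x axis), with its 95% interval for each listed clone tested at both time points (y axis), filled where the limma adjusted p was 0.05 or less. Osteopontin has the largest difference of the clones drawn, 2.34, followed by osteoactivin at 1.97. CD44 and ICAM-1 are not drawn because they were not tested.

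Closeness to a member was measured as the root mean square difference of log2 ratios over the arrays on which it has a value. For CD44, over 5 arrays and 3523 features, the closest was tissue inhibitor of metalloproteinase-1, a secreted inhibitor of matrix proteases, at 0.53, with means of 3.38 at 1 dpi and 1.68 at 4 dpi. An expressed sequence tag for adipose differentiation-related protein (0.66), syndecan 1 (0.79), FYN binding protein (0.97) and S-100 related protein (1.08) followed. For osteopontin, over 7 arrays and 2189 features, the closest was osteoactivin at 2.40, then an unnamed feature at 3.02 and vimentin at 3.02, so no feature with 7 values came near its ratios. For ICAM-1, over 4 arrays and 3873 features, the closest 5 were at 0.18 to 0.21, led by a serine/threonine kinase-like clone, lyk4, and ornithine decarboxylase, an enzyme of polyamine synthesis. No one feature was among the 5 closest of all 3 members.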

How the data were processed

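Total cortical RNA of 7 rats was hybridised to 2-colour cDNA arrays, with 3 arrays at 1 dpi and 4 at 4 dpi and a separate animal on each. Time point, replicate and dye came from the labels, and the table held 0 columns of samples outside them. The authors subtracted the mean local background from the mean spot intensity, left out spots absent or under 2 times the background, turned the ratio of swapped arrays, applied Lowess within each array and deposited the values as log2 ratios of injured over uninjured cortex. Scaling between arrays is not given in the sources used here. Spot intensities were not analysed here, so signal over background is known only as the number of features with a value, and precision is limited by how many arrays there were. Clone names came from the study's lists of regulated clones.

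The mean log2 ratio of each feature was tested against 0 by lmFit and eBayes of limma 3.58.1 in R 4.3.3 over features with a value on at least 2 arrays at 1 dpi or 3 at 4 dpi, with Benjamini-Hochberg adjustment over all features tested. Calls needed an adjusted p no higher than 0.02 and a mean beyond 0.7 in either direction. The methods give both values, a false discovery rate of 2% and a cut-off of 0.7 on the mean ratio, and add that the cut-off was applied to each array, a wording that allows either reading, so the cut-off on every array was run as an alternative. The difference between time points was tested in 1 limma fit of all 7 arrays with a threshold of 0.05 on the adjusted p. Gaps between members were tested with two-sided exact permutation tests, adjusted over 3 pairs. SAM, which the methods name, was run after filling missing cells by their 10 nearest features. Other alternatives were no limit or a stricter limit on the log2 ratio, other adjusted p thresholds, 1 fit of both time points, the dye as a term, centring, scaling, other filters on missing values, the replicate block and leaving out each array. Figures were drawn with matplotlib 3.10.9. The scripts were tested on simulated data.

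The members and the lists of 27 other clones were chosen with earlier results of these data known, and most clones come from the study's own lists of regulated clones. Named were the members, those lists, and for each member the 5 features closest to it in log2 ratio. The exact test of the osteopontin difference and the alternatives for the listed clones beside the members were chosen after seeing the data.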

Additional observations from a re-analysis of the deposited data

Results flagged for a closer look

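Of 17 listed clones with a value on all 4 arrays of 4 dpi, 2 had an array far from the others, where chance alone marks about 1 clone in 20. Ezrin was at 0.763 on replicate 3 against 0.47 to 0.49 on the others, a gap of 0.93 of the whole range, and the class III Fc gamma receptor was at 0.048 on replicate 1 against 1.51 to 1.74 on the others, a gap of 0.86 of the range. Osteopontin had no such array.

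By a limma test of the difference, the log2 ratio of osteopontin was higher at 4 dpi than at 1 dpi by 2.34. The same test called osteoactivin (1.97), fibronectin (1.31), osteonectin (1.21), collagen I alpha 1 (1.20), collagen III alpha 1 (1.12), C1q beta (1.00) and C1q C (0.99) higher at 4 dpi, and c-jun (-0.94), syndecan 4 (-0.90) and Na+K+ ATPase (-0.71) lower. Besides osteopontin, 3 of these 10 calls, on osteoactivin, osteonectin and collagen I alpha 1, were kept whichever array was left out.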

How the results depend on the processing

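Osteopontin at both time points and CD44 at 1 dpi kept direction and call under every alternative that gave a test. ICAM-1 at 1 dpi was not called with both time points in 1 fit (1.08, limma adjusted p of 0.0433), and had no test with a dye term (1.08) or with an array left out (1.08 to 1.08). Leaving out arrays gave -0.45 to 1.01 for ICAM-1 at 4 dpi. Scaling the arrays to 1 spread moved the change of osteopontin minus ICAM-1 to 3.64. Features called upregulated and downregulated were 193 and 75 at 1 dpi and 84 and 12 at 4 dpi, SAM calling 204, 76, 88 and 12. With no limit on the log2 ratio there were 136 downregulated at 1 dpi, and 151 upregulated and 67 downregulated at 4 dpi. With the limit passed on every array there were 112 upregulated and 26 downregulated at 1 dpi, and 35 and 1 at 4 dpi. Leaving out arrays gave 121 to 196 upregulated at 1 dpi and 3 to 11 downregulated at 4 dpi, the lowest counts being without replicate 2 of 1 dpi and replicate 3 of 4 dpi. Features higher and lower at 4 dpi, 111 and 48, became 55 and 18 at an adjusted p of 0.02, 26 lower with a value on all 7 arrays, and 30 to 131 and 7 to 64 without single arrays, the lowest without replicate 1 of 1 dpi. Replicate numbers only name different animals. Deviations of same-numbered arrays of the time points correlated at -0.17, 0.01 and -0.27. Over all pairs of a 1 dpi and a 4 dpi array, those with the same ipsilateral dye correlated at -0.10 to 0.41. Pairs with different dyes correlated at -0.34 to 0.03. The part of the dye in these correlations was not tested. The replicate block left 23 higher and 6 lower, with osteopontin at 2.42 (limma adjusted p of 0.00228), and lost the calls of fibronectin, collagen III alpha 1, syndecan 4, c-jun, C1q beta, C1q C and Na+K+ ATPase. Scaling also ended the difference of c-jun and, like centring, the call of C1q C at 1 dpi, and the dye term ended the difference of C1q beta. The near-zero mean of collagen III alpha 1 at 1 dpi turned to 0.17 with a dye term and lay between -0.48 and 0.26 without single arrays, and that of syndecan 4 at 4 dpi between -0.075 and 0.24. The cause of these shifts was not tested. Only 2 values of CD44 and ICAM-1 at 4 dpi, with spots near background left out by the authors, limit what can be said of them.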
